A study of Mus musculus with 25 samples.

Results

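The regions described here are stretches of open chromatin that carried an ATAC-seq peak in both kinds of resting skin stem cell, hair follicle stem cells (HFSC) and epidermal stem cells (Epd in the peak lists, EpdSC in the RNA labels), and none in tumour cells. ATAC-seq cuts accessible DNA with a transposase, and a peak is a stretch with more cut fragments than its surroundings. The members were chosen by the presence of peaks alone: the peak lists of the 4 populations were merged wherever intervals overlapped by 1 bp or more, which gave 98107 union regions on the autosomes and the X chromosome, and regions with an HFSC and an Epd peak but no Tumor peak were kept. There were 4254 members, 4.34% of all union regions and 21.4% of the 19892 regions shared by HFSC and Epd (95% Wilson interval 20.8% to 22.0%). Of these, 2860 also had a peak in wounded skin (Wound) and 1394 did not.

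All cells came from female mice. The ATAC-seq mice were of a mixed CD1/B6 strain, and the peak lists were called on pooled alignments, so each population has 1 list and no replicate. HFSC were sorted from back skin of postnatal day 50 on high integrin alpha 6 with CD34 and without Sca1, and Epd on high integrin alpha 6 with Sca1 and without CD34. Wound cells came from full-thickness and partial-thickness wounds and were taken as positive for integrin alpha 6 and Sca1, a gate without CD34. Tumor cells were grafted squamous cell carcinoma cells driven by oncogenic HRas, sorted on high integrin alpha 6, high integrin beta 1 and GFP.

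RNA, which the rule did not use, was counted in mice of strain B6. Tumour RNA is from GFP-positive grafted cells with high integrin alpha 6, in 1 library labelled HRas and 1 labelled HRas TbrKO, and was set against 1 HFSC and 1 EpdSC library labelled Tbr, from the same set of libraries (DS), at postnatal day 60. The labels do not expand Tbr, and its deletion differs between the 2 tumour libraries. DS also holds 1 tumour library labelled TbrKO, without HRas in the label, with high integrin and 1 with low integrin. The HRas and HRas TbrKO tumours have 1 library each of low integrin as well. These further tumour libraries, also of postnatal day 60, enter only alternatives and the levels of Rarb. The set CL was also of postnatal day 60, and all its cells had high integrin alpha 6. It holds 2 libraries each of unwounded HFSC, unwounded EpdSC, HFSC-derived cells after wounding (marked by YFP through Sox9CreER) and EpdSC after wounding (YFP-negative cells of that genotype). The unwounded CL cells were sorted on CD34 and Sca1 instead of YFP, so gate and wound changed together. A further set, BK (postnatal day 60), holds 2 libraries of HFSC with CD34 and without Sca1, 2 of EpdSC with Sca1 and without CD34, and 1 of EpdSC after wounding, sorted on high integrin alpha 6 without lineage markers and on neither CD34 nor Sca1. In bulk samples fewer cells of a type and less RNA per cell cannot be told apart.

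Open chromatin away from genes often marks enhancers, short stretches at which transcription factors bind and raise the transcription of a gene that may lie far off. Gene starts of broadly used genes tend to be open in most cell types, whereas enhancers are more often open in some and closed in others. In skin, hair follicle and epidermal stem cells share a basal keratinocyte programme and differ in a smaller set of lineage regulators, and both supply cells for wound repair.

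Peak lists rested on 26825550 fragments in HFSC, 13963471 in Epd, 29579794 in Tumor and 11140895 in Wound, and held 55421, 25739, 54181 and 56854 peaks. The deepest of the 4 is therefore the population in which members have no peak. As a check of the labels, the start of Krt5, a basal keratin, was open in all 4 populations and that of Krt14, its partner keratin, in HFSC alone. None of the 4 measured leukocyte marker starts (Ptprc, Cd207, Cd3e and Lyz2) had a peak in any of them. Of the melanocyte markers, the start of Dct was open in all 4 and that of Tyr in none. Of the fibroblast markers, Col1a2 was open in HFSC alone, and Col3a1 and Pdgfra in none. Kdr (endothelium) was open in HFSC alone, and the muscle marker starts (Mylpf, Acta1 and Des) in none. Gata3, the only EpdSC marker with a start window, was open in all 4. Of 3 HFSC marker starts, 3 were open in HFSC, 1 in Epd, 2 in Tumor and 3 in Wound. RNA libraries of the comparisons below held 14216472 to 32663874 counts.

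The upstream sequences of genes with a member at the start are shown because these are the members that lie at a gene's own start and because their CpG content is one feature in which members differed from regions open in all 4 populations. Each is the 250 bases before a gene start in RefSeq on GRCm38.p6, 5′ to 3′ on the strand of the gene, with CG dinucleotides in capitals. Bmp4 (a ligand of the bone morphogenetic protein pathway), Lhx2 (a LIM homeobox factor of follicle stem cells), Rarb (a retinoic acid receptor) and Rora (an orphan nuclear receptor) were the genes of the fixed lists whose windows a member covered by at least 150 bases.
Bmp4: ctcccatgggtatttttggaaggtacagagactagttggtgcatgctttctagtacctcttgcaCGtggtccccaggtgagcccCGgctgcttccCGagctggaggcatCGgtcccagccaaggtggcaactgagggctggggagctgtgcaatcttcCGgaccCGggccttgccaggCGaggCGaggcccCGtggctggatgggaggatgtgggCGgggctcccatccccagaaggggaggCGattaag
Lhx2: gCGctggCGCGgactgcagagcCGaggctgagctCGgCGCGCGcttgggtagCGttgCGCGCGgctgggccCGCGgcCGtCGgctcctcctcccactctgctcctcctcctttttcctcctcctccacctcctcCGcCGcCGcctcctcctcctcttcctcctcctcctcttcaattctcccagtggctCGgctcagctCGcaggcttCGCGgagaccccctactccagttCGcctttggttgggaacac
Rarb: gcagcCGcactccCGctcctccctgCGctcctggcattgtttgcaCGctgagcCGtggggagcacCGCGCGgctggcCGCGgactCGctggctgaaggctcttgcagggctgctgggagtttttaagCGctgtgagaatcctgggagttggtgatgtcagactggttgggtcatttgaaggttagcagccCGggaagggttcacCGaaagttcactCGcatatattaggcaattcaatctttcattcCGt
Rora: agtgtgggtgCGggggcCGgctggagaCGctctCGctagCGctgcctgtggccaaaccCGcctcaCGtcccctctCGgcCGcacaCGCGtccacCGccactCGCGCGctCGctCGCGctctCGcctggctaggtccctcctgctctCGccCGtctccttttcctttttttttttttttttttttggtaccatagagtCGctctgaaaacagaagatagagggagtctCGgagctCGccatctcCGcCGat
The Bmp4 stretch, at chr14:46390670-46390919 on the minus strand, held 11 CG, while Lhx2 (chr2:38351058-38351307, plus strand) held 24, Rarb (chr14:16575477-16575726, minus strand) 16 and Rora (chr9:68653536-68653785, plus strand) 26. All 4 lay under members with a Wound peak.

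The next 7 are the most changed genes, up to 2 in each direction of each RNA comparison, whose window a member covered. Dab1 (an adaptor of Reelin signalling), Prrg3 (a membrane protein) and Oxtr (the oxytocin receptor) had lower RNA in tumour or wound cells. Rcan2 (a calcineurin regulator), Adamts2 (a procollagen peptidase), Car9 (a carbonic anhydrase induced by low oxygen) and Fez1 (an axonal transport protein) had higher RNA in one of the 2 comparisons.
Dab1: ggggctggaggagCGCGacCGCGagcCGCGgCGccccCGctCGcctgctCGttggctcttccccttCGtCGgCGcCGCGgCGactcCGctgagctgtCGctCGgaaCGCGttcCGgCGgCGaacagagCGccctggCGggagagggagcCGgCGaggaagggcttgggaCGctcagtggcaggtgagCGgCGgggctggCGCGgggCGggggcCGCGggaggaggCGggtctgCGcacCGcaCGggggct
Prrg3: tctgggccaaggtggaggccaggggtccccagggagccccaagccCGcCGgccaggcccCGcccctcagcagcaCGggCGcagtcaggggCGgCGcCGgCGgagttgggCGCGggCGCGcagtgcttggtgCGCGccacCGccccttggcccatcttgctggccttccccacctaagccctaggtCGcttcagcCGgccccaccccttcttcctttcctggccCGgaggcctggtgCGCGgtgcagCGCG
Oxtr: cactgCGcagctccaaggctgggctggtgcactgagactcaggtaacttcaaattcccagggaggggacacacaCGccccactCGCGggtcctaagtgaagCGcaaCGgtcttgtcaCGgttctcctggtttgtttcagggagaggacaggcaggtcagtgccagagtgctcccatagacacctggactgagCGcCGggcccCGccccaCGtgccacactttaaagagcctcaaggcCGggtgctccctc
Rcan2: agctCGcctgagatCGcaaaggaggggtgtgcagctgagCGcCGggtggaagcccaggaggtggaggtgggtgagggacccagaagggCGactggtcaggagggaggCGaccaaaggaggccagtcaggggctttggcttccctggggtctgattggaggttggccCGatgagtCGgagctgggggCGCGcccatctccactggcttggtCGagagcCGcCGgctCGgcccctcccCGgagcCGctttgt
Adamts2: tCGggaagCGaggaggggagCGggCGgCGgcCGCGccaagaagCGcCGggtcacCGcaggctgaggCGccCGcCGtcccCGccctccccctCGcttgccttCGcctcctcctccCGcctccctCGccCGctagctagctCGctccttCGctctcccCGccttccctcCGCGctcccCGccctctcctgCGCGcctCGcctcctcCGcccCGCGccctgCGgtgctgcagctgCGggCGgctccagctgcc
Car9: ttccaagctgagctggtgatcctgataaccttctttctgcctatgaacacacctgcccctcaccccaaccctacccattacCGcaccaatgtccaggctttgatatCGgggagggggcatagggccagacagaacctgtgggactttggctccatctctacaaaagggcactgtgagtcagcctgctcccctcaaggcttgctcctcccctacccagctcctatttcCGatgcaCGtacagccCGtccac
Fez1: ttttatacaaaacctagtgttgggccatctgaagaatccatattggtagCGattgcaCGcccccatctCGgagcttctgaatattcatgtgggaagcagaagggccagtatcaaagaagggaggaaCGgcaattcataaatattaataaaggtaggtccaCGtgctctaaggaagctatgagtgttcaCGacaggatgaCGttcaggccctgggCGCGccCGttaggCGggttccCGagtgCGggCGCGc
They lie at chr4:104367288-104367537 (Dab1, plus strand), chrX:71962375-71962624 (Prrg3, plus), chr6:112489826-112490075 (Oxtr, minus), chr17:43801601-43801850 (Rcan2, plus), chr11:50601835-50602084 (Adamts2, plus), chr4:43506776-43507025 (Car9, plus) and chr9:36832490-36832739 (Fez1, plus). The number of CG ran from 5 in Car9 to 40 in Dab1, so single members at gene starts spanned sparse and dense CpG. The members under Prrg3, Oxtr and Rcan2 had no Wound peak. For contrast, Axin2 and Smad5, chosen after their values were seen, have a start open in all 4 populations and a member elsewhere within 50 kb.
Axin2: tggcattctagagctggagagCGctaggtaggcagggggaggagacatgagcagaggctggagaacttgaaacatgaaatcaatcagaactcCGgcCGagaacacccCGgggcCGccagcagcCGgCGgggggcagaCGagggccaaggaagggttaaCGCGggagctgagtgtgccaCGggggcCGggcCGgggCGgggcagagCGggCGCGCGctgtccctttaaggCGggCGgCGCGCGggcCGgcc
Smad5: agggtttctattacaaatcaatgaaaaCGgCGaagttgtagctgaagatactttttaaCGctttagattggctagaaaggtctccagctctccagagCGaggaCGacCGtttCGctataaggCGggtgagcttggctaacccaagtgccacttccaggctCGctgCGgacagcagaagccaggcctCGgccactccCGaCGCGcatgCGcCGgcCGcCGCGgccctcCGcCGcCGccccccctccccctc
They lie at chr11:108920099-108920348 and chr13:56702760-56703009, both on the plus strand, with 24 and 22 CG.

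Over all gene starts, members covered at least 150 bases of 369 of the 32619 RefSeq windows (250 bases before to 50 after a start, chromosome 18 not analysed here). Their CpG content was lower than that of windows under regions of all 4 populations: the median ratio of observed to expected CpG was 0.526 against 0.806, and 43.4% against 80.2% of windows had a ratio of 0.6 or more. Over all windows the median was 0.387 and the share 36.0%. The median GC content was 57.0% under members and 62.3% under regions of all 4 populations.

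Of 25 motifs searched on both strands, 10 had a share in windows open in all 4 populations that lay outside the interval of the member windows, and the ETS motif CCGGAAG was one of them. It was found in 25 of 369 member windows (6.78%, Wilson interval 4.63% to 9.81%), in 20.5% of windows under regions of all 4 populations and in 8.92% of all windows. Among windows of 50.7% to 64.0% GC, the middle range of the member windows, the shares were 7.85% and 22.0%, and 12.4% over all windows in that range. The AP-1 motif TGANTCA was in 7.32% of member windows, 4.60% of those open in all 4 populations and 7.85% of all windows. The RUNX motif TGTGGT was in 9.76% of member windows against 16.6% of all, and the SMAD motif CAGACA in 22.0% against 20.8%. The share over all windows was inside the member interval for 18 of the 25 motifs. These are matches of letters in promoter windows and say nothing of binding, and most members are not at gene starts.

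Other motifs plotted by name were AP-2 (GCCNNNGGC, in 19.8% of member windows), the short KLF or SP motif (CCCCNCCC, 39.02%), TEAD (GGAATG, 13.6%) and NF-Y (CCAAT, 33.1%).

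**Figure D1:**
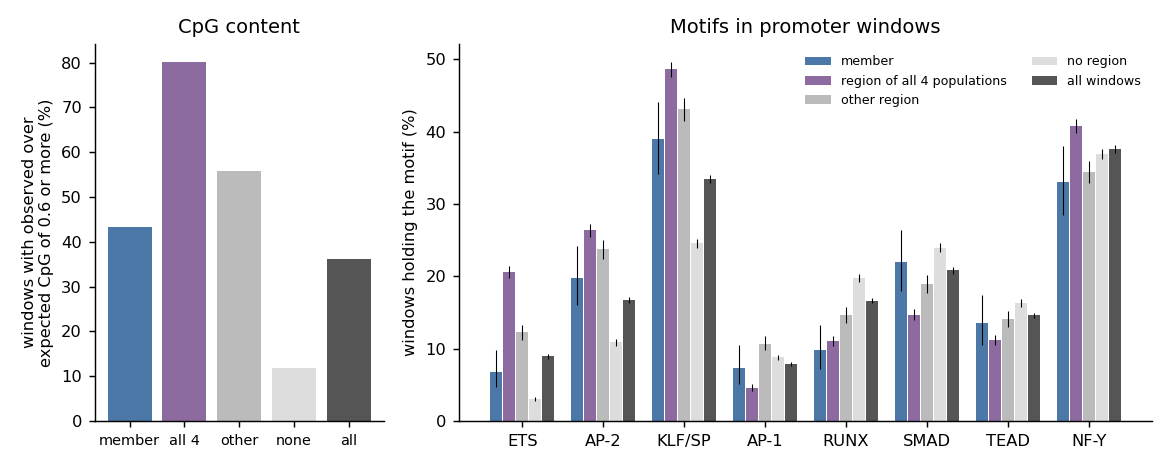
CpG content (left, share of 300-base promoter windows with an observed over expected CpG ratio of 0.6 or more) and motif shares (right, per cent of windows with 95% Wilson intervals) in windows covered by a member, by a region of all 4 populations, by another region, by none, and over all windows. Member windows stood at 43.4% against 80.2% for CpG and at 6.78% against 20.5% for the ETS motif, with regions of all 4 populations as the comparison.

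Members were weaker and shorter than regions open in all 4 populations, a description that the rule partly fixes. The fold enrichment of a peak (the authors' ratio of its pileup to the local background) had a median of 6.28 in HFSC, 5.89 in Epd and 6.63 in Wound for members with a Wound peak, and of 5.57 in HFSC and 5.19 in Epd for members without. Regions of all 4 populations had medians of 8.46 in HFSC and 6.93 in Epd. The median length was 894 bp with a Wound peak, 704 bp without, and 1131 bp for regions of all 4 populations. The 488 regions with HFSC, Epd and Tumor peaks but no Wound peak were close to members without one. Their median folds were 5.32 in HFSC and 4.93 in Epd, and their median length was 729 bp. Low strength and short length were therefore not particular to regions without a Tumor peak.

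The share of shared HFSC and Epd regions that lacked a Tumor peak fell with peak strength. Ranked by the lower of the HFSC and Epd folds, it was 36.8% in the weakest of 4 bins (folds of 1.88 to 4.502), 24.3% and 15.97% in the next bins and 7.94% in the strongest (folds of 7.97 and above). Within the members the share with a Wound peak went the other way, from 60.6% in the weakest bin to 80.9% in the strongest. A Wound peak was present in 67.2% of members (65.8% to 68.6%; 47.2% with each list cut to the length of the shortest) and in 96.9% of the shared regions that did have a Tumor peak (96.6% to 97.1%).

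The absence of a Tumor peak was seldom a matter of a few bases. The median distance from a member to the nearest Tumor peak was 11.3 kb, with 70 members within 500 bp of one and 278 more than 100 kb away. Members without a Wound peak lay further off, at a median of 13.5 kb against 10.7 kb, and 10.2% against 4.76% of them were beyond 100 kb. Just inside the rule stood a region of chromosome 8 whose Tumor peak began 16 bp away, with folds of 6.49 in HFSC and 4.23 in Epd. Just outside stood a region of chromosome 3 with folds of 3.18 and 4.39 and a Tumor peak at 2.13, whose -log10 q of 1.46 was close to the caller's limit.

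**Figure D2:**
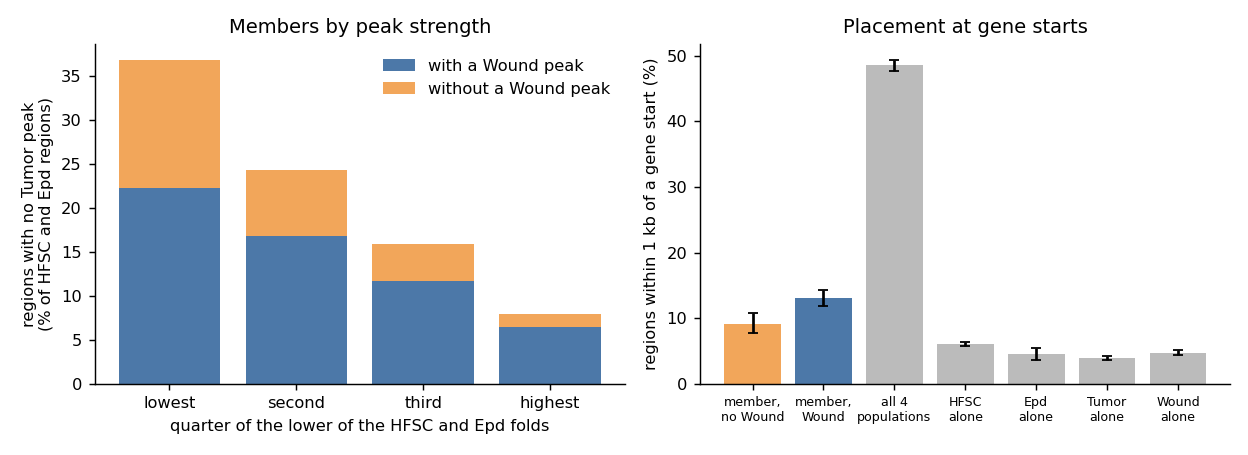
Left, share of HFSC and Epd regions with no Tumor peak (per cent), in 4 bins of the lower of the HFSC and Epd folds and split by the presence of a Wound peak, from 36.8% in the weakest to 7.94% in the strongest bin. Right, share of regions within 1 kb of a gene start (per cent, 95% Wilson intervals) for members and for other peak patterns, with 13.0% and 9.13% in members and 48.5% in regions of all 4 populations.

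Members lay mostly away from gene starts. A start was within 1 kb of 13.0% of members with a Wound peak (11.8% to 14.3%) and of 9.13% of those without (7.70% to 10.8%), against 48.5% of regions open in all 4 populations and 14.4% of all union regions. Regions found in a single population were at starts less often still, with 6.02% for HFSC alone and 3.93% for Tumor alone. The span of a protein-coding gene held 51.4% of members and 52.6% of all union regions. RefSeq start windows covered 81.8% of protein-coding genes, and members at the other starts are not counted.

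The strongest members were distal. With a Wound peak, the member with the highest lower fold was inside Oxr1, an oxidation resistance gene, at chr15:41830491-41831220, with folds of 15.6 in HFSC, 15.2 in Epd and 9.04 in Wound. The next were at chr4:79088232-79089345, 876 kb from Ptprd (14.8, 14.1 and 6.28), and at chr9:85434097-85436272, 107 kb from Tent5a (13.7, 13.4 and 11.5). Without a Wound peak, the leading members were inside Abca16, a lipid transporter gene, at chr7:120486316-120487096 (13.1 in HFSC and 14.5 in Epd), at chr1:112102986-112103795, 238 kb from Dsel (11.9 and 12.7), and inside Samd12 at chr15:53592311-53593506 (13.7 and 11.9). Of the 20 members ranked in this way, the lower fold ran from 10.04 to 15.2.

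Most members stood alone. Taking all union regions in order along each chromosome, 2958 members (69.5%) had a region with a Tumor peak before the next member on either side, while 118 (2.77%) lay in 20 runs of 5 or more. The longest held 8 members: one on chromosome 12 (54443387 to 54576573, 7 with a Wound peak), 68.8 kb from Sptssa, and one on chromosome 16 (89344814 to 89719625) over hair keratin-associated protein genes such as Krtap11-1 and Krtap8-1, of which 3 had a Wound peak. Runs of 7 lay 594 kb from Efnb2, 123 kb from Meis1 (a homeobox factor), and across Postn and Trpc4. Others lay over Limch1, Prlr, Tfap2b, Rora, Col19a1 and Elmo1, 48.5 kb from Cxcl12 and 102 kb from Irx2.

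The share of members also varied between chromosomes, from 15.1% on chromosome 7 (13.3% to 17.2%) to 27.0% on chromosome 17 (24.1% to 30.1%). Over the 20 chromosomes it moved with the median local background of the Tumor peaks relative to that of the HFSC peaks (Pearson r = -0.77, Spearman rho = -0.77, n = 20 chromosomes, which share the same libraries). With the Wound background in place of Tumor, r was -0.12. The background ratio ran from 0.838 on chromosome 14 to 1.05 on chromosome 19. Its part in the absence of Tumor peaks was not tested.

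**Figure D3:**
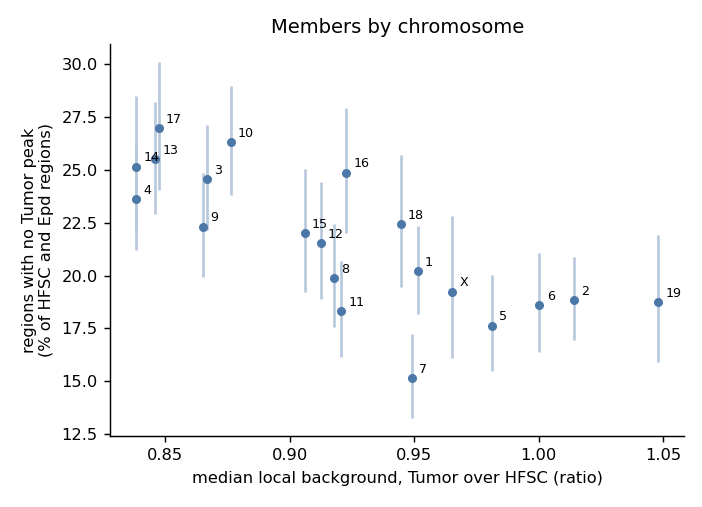
Share of HFSC and Epd regions with no Tumor peak (per cent, 95% Wilson intervals) against the ratio of the median local background of Tumor peaks to that of HFSC peaks, 1 point per chromosome, labelled by its number. Chromosomes with a lower ratio had more members, from 27.0% on chromosome 17 to 15.1% on chromosome 7.

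RNA gave a measure that the rule did not use. A member lay within 1 kb of the start of 502 genes, of which 394 had no other region there; 357 were in the count table, and 274 passed the filter on low counts for the tumour comparison and 287 for the wound comparison. A gene expressed only in resting cells passes through those cells, so these counts are read beside the same counts over all genes tested.

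In HRas-bearing tumour cells of high integrin alpha 6 against Tbr stem cells (2 libraries against 2), genes with a member at the start were mostly lower. Each side joined 2 populations with 1 library each, so its spread includes the difference between them. Of 274, 125 were lower (45.6%) and 18 higher (6.57%) at an edgeR adjusted p under 0.05, against a background of 18.5% lower and 18.6% higher among all 14558 genes tested. Their median log2 fold change was -2.02, against -0.01 over all genes. Genes whose start was open in all 4 populations stood at 19.1% lower and 14.5% higher. With a Wound peak at the member 46.1% were lower and without one 43.1%, a difference that was not tested. With no filter on low counts 127 of 348 were lower (36.5%, against 13.3% of all genes). Counts were also simulated at the spread of these libraries, with 200 genes changed 4-fold. The tumour design recovered 11.5% of them, and 17.9% of its calls were false. The wound design below recovered 84%, with 7.69% of calls false. A gene that did not pass in tumour cells is therefore not shown to be unchanged.

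The size of these counts rested on both tumour libraries. Without the HRas library 13 of the member genes were lower and 0 higher, and without the HRas TbrKO library 11 and 0, with medians of -2.33 and -1.91, in fits with 1 tumour library. Over all genes tested the calls fell to 0.57% and 0.44% lower in those fits. Without the Tbr HFSC library the median was -1.45, against 0.08 over all genes, in a fit with 1 stem cell library. With the TbrKO tumour of high integrin added as another tumour library, 41 of 282 were lower (14.5%, against 3.76% of all genes) and 4 higher, with a median of -1.28. With all 6 tumour libraries 88 of 296 were lower (29.7%, against 15.3% of all genes) and the median was -0.92. Markers of other cells moved with this comparison: all 5 fibroblast markers rose, with a summed level of 8.11 to 36.2 CPM in the Tbr libraries and 861 to 2082 CPM in the tumour libraries. Leukocyte markers summed to 27.0 to 90.5 against 257 to 386 CPM, with 2 of 5 higher and 1 lower. Endothelial markers summed to 1.16 to 1.37 against 86.4 to 156 CPM, with 3 of 3 higher. Muscle markers summed to 2.45 to 2.87 against 6.50 to 13.5 CPM with 2 of 3 higher, with Acta1 and Des at 0 in the Tbr libraries, and melanocyte markers to 0.44 to 6.79 against 1.97 to 4.02 CPM with 0 called. HFSC markers summed to 92.8 to 1820 against 103 to 144 CPM, with 2 of 5 lower. EpdSC markers summed to 286 to 763 against 618 to 922 CPM, with 1 of 3 lower and 0 higher. Keratinocyte markers summed to 19558 to 37116 against 31463 to 37572 CPM, with 1 of 5 lower and 0 higher. The part of all these markers in the result was not tested.

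In wounded against unwounded stem cells of CL (4 libraries against 4, both lineages weighted equally), genes with a member at the start were again mostly lower. Of 287, 154 were lower (53.7%) and 56 higher (19.5%), against 32.3% lower and 30.9% higher among all 14831 genes tested, with a median log2 fold change of -1.12 against -0.05. Genes with a start open in all 4 populations stood at 30.6% lower and 30.04% higher. Among genes at a member without a Wound peak 39 of 62 were lower (62.9%) and 8 higher (12.9%), and among those at a member with one 116 of 226 were lower (51.3%) and 48 higher (21.2%). That difference was not tested. So genes whose member kept a Wound peak were also lower more often than all genes tested.

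The wounded library of BK did not show this. Set against the 2 EpdSC libraries of BK, in a fit added after the data were seen, 20 of 297 member genes were lower (6.73%) and 5 higher (1.68%) at an edgeR adjusted p under 0.05, beside 6.21% lower and 1.77% higher among all 14663 genes tested. The median log2 fold change was -0.20, against -0.06 over all genes. Only 1 wounded library stands behind these values, assumed to vary like the other BK groups, and its gate differed from that of CL.

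Leaving out each CL library in turn gave medians of -1.31 to -1.07 for member genes, against -0.19 to -0.05 over all genes. In the HFSC lineage alone 136 of 287 were lower (47.4%) and 41 higher (14.3%), against 24.7% lower and 21.4% higher of all genes. In EpdSC alone 130 were lower (45.3%) and 52 higher (18.1%), against 28.2% and 30.2% of all genes. Wounded libraries also held more marker RNA of other cells: leukocyte markers summed to 18.8 to 101 CPM in unwounded and 22.3 to 3360 CPM in wounded libraries with 4 of 5 higher, fibroblast markers to 2.12 to 39.6 and 6.29 to 685 CPM with 5 of 5 higher, and endothelial markers to 0.38 to 1.04 and 3.36 to 14.4 CPM with 2 of 3 higher. Muscle markers summed to 1.98 to 2.69 and 4.40 to 6.42 CPM with 1 of 2 tested higher, and melanocyte markers to 0.58 to 6.08 and 1.10 to 8.24 CPM with 1 of 3 tested higher. HFSC markers summed to 86.6 to 1465 and 60.6 to 92.3 CPM, with 5 of 5 lower. EpdSC markers summed to 202 to 868 and 838 to 1279 CPM, with 1 of 3 higher and 1 lower. Keratinocyte markers summed to 20297 to 44235.5 and 59595 to 147441 CPM, with 1 of 5 higher and 2 lower. The part of all these markers in the result was not tested.

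Calls in the 2 comparisons overlapped among member genes and among all genes. Of the 125 member genes lower in tumour cells, 95 were also lower after wounding, which is 76% of the former and 61.7% of the 154 lower after wounding, and 8 were higher there. Over all genes the overlap was 72.4% of those lower in tumour cells and 40.9% of those lower after wounding. Of the 18 higher in tumour cells 11 were higher after wounding (61.1%, against 65.03% over all genes). The libraries of these comparisons are different, but no test of the overlap was made.

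The more members lay within 50 kb of a gene start, the larger was the share of genes that were lower. In the tumour comparison 16.6% of genes with 0 members nearby were lower, 25.4% with 1, 39.2% with 2 and 52.2% with 3 or more (47 of 90). In the wound comparison the shares were 30.5%, 36.2%, 46.4% and 58.5% (55 of 94). Taking the nearest gene within 50 kb of each member gave 35.9% lower and 11.01% higher in tumour cells and 46.4% and 23.0% after wounding. The pattern was present at each level of expression: in the low, middle and high bands of all genes tested, 38.1%, 60.6% and 44.9% of member genes were lower in tumour cells, against 17.5%, 19.7% and 18.5% of all genes in the band.

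**Figure D4:**
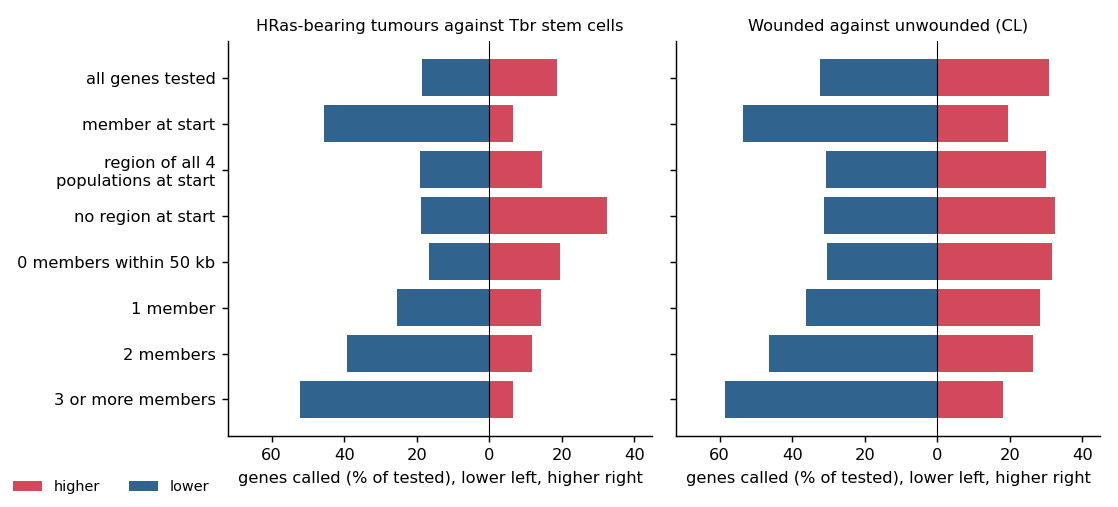
Share of tested genes called lower (blue, to the left) or higher (red, to the right) at an edgeR adjusted p under 0.05, in HRas-bearing tumour cells against Tbr stem cells and in wounded against unwounded cells of CL, by what lies within 1 kb of the gene start and by the number of members within 50 kb. Genes at a member were lower in 45.6% and 53.7% of cases, and genes with 3 or more members nearby in 52.2% and 58.5%.

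Of the 209 genes on the 14 lists of skin identity and signalling, 136 had a start window and 6 a member within 1 kb (4.41%, against 1.86% of all genes with a window). These were Lhx2 and Postn (HFSC identity), Bmp4, Rarb and Rora, and Sbsn (suprabasin, made in differentiating epidermis). A member within 50 kb was present for 47 (34.6%, against 17.2% of all genes), and a start open in all 4 populations for 76 (55.9% against 31.2%).

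Bmp4 had a member over its start at chr14:46390216-46391090, with folds of 3.97 in HFSC, 5.48 in Epd and 4.16 in Wound. Its RNA was 9.53 CPM in Tbr HFSC and 48.6 in Tbr EpdSC, and 0.87 and 0.50 CPM in the HRas and HRas TbrKO tumour libraries. In CL it was 3.20 and 4.58 CPM in HFSC and 60.8 and 68.1 in EpdSC, and after wounding 0.66 and 0.76 in the HFSC lineage and 0.30 and 1.00 in EpdSC. The HRas-bearing tumour and wounded CL libraries lay below every Tbr and CL resting library. In BK the HFSC libraries held 2.32 and 4.11 CPM and the EpdSC libraries 45.9 and 71.1, with 13.4 after wounding, above HFSC and below EpdSC. The log2 fold change was -5.43 ± 0.98 (SE) in tumour cells (edgeR adjusted p = 0.0185) and -4.53 ± 0.33 after wounding (edgeR adjusted p = 2.38e-05).

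Lhx2 had a member at chr2:38350277-38351310 (folds 7.01, 5.42 and 8.28), so its start was open in Epd, where its RNA was low. Its level was 278 CPM in Tbr HFSC and 2.77 in Tbr EpdSC, and 0.44 and 0.21 in the tumour libraries. In CL it was 184 and 176 CPM in HFSC and 1.55 and 2.38 in EpdSC, and after wounding 4.82 and 4.02 in cells of the HFSC lineage and 1.05 and 1.13 in EpdSC. The wounded HFSC lineage lay above unwounded EpdSC, so the pooled groups overlapped. It fell by 8.77 on the log2 scale in tumour cells (SE 2.46, edgeR adjusted p = 0.0472) and by 3.10 after wounding (SE 0.18, edgeR adjusted p = 9.28e-06).

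Rora had a member at chr9:68653326-68653963 (4.26, 3.58 and 4.60) and no Tumor peak for 123 kb. It stood at 212 and 605 CPM in Tbr HFSC and EpdSC and at 8.90 and 5.65 in the tumour libraries (-5.84 ± 0.68 on the log2 scale, edgeR adjusted p = 0.00974). After wounding it fell in EpdSC, from 285 and 290 CPM to 12.4 and 39.7, while the HFSC lineage went from 46.2 and 62.6 to 46.2 and 91.8 CPM. Over both lineages it fell by 1.56 on the log2 scale (SE 0.38, edgeR adjusted p = 0.00814), and the value in the HFSC lineage alone was 0.34. In BK it stood at 87.6 and 351 CPM in EpdSC and at 444 CPM in wounded EpdSC, above both.

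Postn (periostin, a matrix protein) had a member 776 bp from its start, at chr3:54361883-54362884, with no Wound peak and no Tumor peak for 307 kb. Its RNA was 5317 and 496 CPM in Tbr HFSC and EpdSC and 211 and 132 CPM in the HRas-bearing tumours, which missed the threshold (-4.12 ± 1.21, edgeR adjusted p = 0.0525). In CL it fell by 2.31 on the log2 scale after wounding (SE 0.34, edgeR adjusted p = 0.000674), with overlap between the pooled groups. In BK it was higher in the wounded EpdSC library, at 4562 CPM against 199 and 151 in EpdSC. Rarb was at 1.56 and 1.21 CPM in the Tbr libraries and 0.60 and 0.50 in the HRas-bearing tumours, and passed in neither comparison (edgeR adjusted p = 0.125 and 0.529). In the TbrKO tumours it was at 21.6 CPM with high and 25.6 with low integrin, and its log2 fold change turned from -1.35 to 2.43 with all 3 tumours of high integrin and to 2.59 with all 6. Sbsn rose after wounding by 0.63 ± 0.15 (edgeR adjusted p = 0.00729) and did not pass in tumour cells (-2.26 ± 0.82, edgeR adjusted p = 0.0866). Its member was 750 bp from the start, and a region with HFSC, Tumor and Wound peaks also lay within 1 kb of the start.

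Among the other list genes, calls are given beside those of the whole lists. Of the 47, 21 were lower and 3 higher in tumour cells and 28 lower and 6 higher after wounding, beside 69 lower and 21 higher of 205 and 109 lower and 38 higher of 207 over the lists. Of the 6 BMP genes with a member nearby, Bmp4, the receptor Bmpr2 and the signal transducers Smad1 and Smad5 were lower in tumour cells, and Bmp4, Bmpr2, Smad5, the target Id2 and the antagonist Grem1 after wounding, with 0 higher in either. Over all 15 BMP genes 6 and 10 were lower and 0 higher. The Wnt ligand Wnt3 (-5.16 ± 0.77) and the Wnt target Axin2 (-3.93 ± 0.51) were lower in tumour cells (edgeR adjusted p = 0.0137 and 0.011), and both with the receptor gene Lgr6 (-5.51 ± 0.22) after wounding. The immediate early genes Fos, Zfp36 and Dusp1 were lower in tumour cells and these and Klf6 after wounding, as were 15 and 17 of the 18 genes of that list.

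Of 13 differentiation genes tested, 9 were higher and 2 lower after wounding, and 1 higher and 6 lower in tumour cells. Of the 5 with a member within 50 kb, Ivl (involucrin), Tgm3 (a transglutaminase) and Sbsn were higher after wounding and Lor (loricrin) lower, and Lor alone was called in tumour cells, where it was lower. Of the 7 ETS, STAT and NF-kB genes with a member within 50 kb, 2 were higher and 1 lower in tumour cells. After wounding 1 was higher and 3 were lower. Elk3 was higher in both (4.60 ± 0.26 and 3.99 ± 0.38) and Elf5 in tumour cells (4.80 ± 0.87, edgeR adjusted p = 0.0184), while Stat5a was lower in both. Of 4 nuclear receptor genes, Rora and the vitamin D receptor Vdr were lower in both comparisons and Rarg after wounding.

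The remaining lists are given by their calls over all their tested genes, tumour comparison before wound comparison. HFSC identity genes were lower in 7 of 19 and 15 of 20 (0 and 1 higher), and of the 4 with a member nearby Lhx2, Tcf7l2 and Npnt were lower in both and Postn after wounding. EpdSC identity genes were lower in 4 and 7 of 16 (0 and 4 higher), Wnt genes in 4 of 14 and 10 of 15 (0 and 2 higher) and Notch genes in 2 and 7 of 11 (1 and 2 higher). Glucocorticoid and clock genes were lower in 11 of 14 in both, with 0 higher, and growth control genes in 7 and 9 of 18 with 2 higher in each. Basal adhesion genes were lower in 2 and 7 of 14 (4 and 2 higher), desmosome and tight junction genes in 1 and 2 of 15 (2 and 5 higher) and TGF-beta genes in 1 and 3 of 14 (3 higher in each). ETS, STAT and NF-kB genes were lower in 1 and 4 of 14 (4 and 5 higher), and nuclear receptor genes in 3 and 6 of 11 (4 and 2 higher).

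The genes with the most members within 50 kb of a start were Prlr with 8, Nhsl1 with 7, and Ackr4, Gja1, Limch1, Smco4, Tfap2b and the RefSeq loci Gm36213 and Gm46152 with 5 each. Smco4 and Gm46152 share the same 5 members. Only 1 of the 8 members at Prlr, the prolactin receptor gene, had a Wound peak, and 2 of 21 regions there had a Tumor peak. The member at its start (chr15:10177219-10178562) had folds of 6.98 in HFSC, 7.23 in Epd and 6.05 in Wound, and the one 17.8 kb from a start had 11.6 in HFSC. Prlr RNA was 239 and 79.8 CPM in Tbr HFSC and EpdSC, and 1.81 and 1.39 CPM in the tumour libraries (-6.67 ± 0.71, edgeR adjusted p = 0.0090). In CL it was 247 and 102 CPM in HFSC and 80.5 and 69.0 in EpdSC, and after wounding 8.39 and 20.6 in cells of the HFSC lineage and 2.34 and 6.58 in EpdSC (-3.82 ± 0.47, edgeR adjusted p = 0.000278). No HRas-bearing tumour or wounded CL library reached the lowest Tbr or CL resting one. In BK the HFSC libraries held 151 and 108 CPM of Prlr and the EpdSC libraries 21.8 and 94.1, with 113 after wounding, so the wounded library lay within the resting range there.

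Ackr4, a scavenging receptor of chemokines, had 5 members within 50 kb, all with a Wound peak, with HFSC folds of up to 11.4. It stood at 324 and 255 CPM in the Tbr libraries and at 0.770 and 0.715 in the tumour libraries (-8.63 ± 0.32, edgeR adjusted p = 0.0048). In CL it was 261 to 330 CPM in the 4 resting libraries and 4.45 to 9.54 in the 4 wounded ones (-5.61 ± 0.17, edgeR adjusted p = 1.32e-06). No HRas-bearing tumour or wounded CL library came near these resting levels. In BK, Ackr4 was at 299 and 242 CPM in EpdSC and at 469 in wounded EpdSC, so the fall of the CL libraries was not seen.

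Tfap2b, an AP-2 transcription factor gene, was at 354 and 112 CPM in the Tbr libraries and 4.48 and 0.61 in the tumour libraries (-6.55 ± 1.23, edgeR adjusted p = 0.0197), and fell from 98.6 to 189 CPM to 6.07 to 28.7 CPM after wounding (-3.19 ± 0.29, edgeR adjusted p = 6.5e-05). Limch1, a regulator of non-muscle myosin, was at 23.2 and 131 CPM in the Tbr libraries and 1.54 and 1.11 in the tumour libraries (-5.89 ± 0.99, edgeR adjusted p = 0.0164), and 4 of its 5 members had no Wound peak. Nhsl1, a regulator of cell migration, fell by 2.52 in tumour cells and by 2.65 after wounding (edgeR adjusted p = 0.0108 and 3.76e-05). Gja1, the gene of the gap junction protein connexin 43, went the other way: it rose after wounding by 3.38 ± 0.17 (edgeR adjusted p = 5.51e-06), from 61.0 to 464 CPM to 1255 to 2212 CPM, although 2 of its 5 members had no Wound peak. In tumour cells it did not pass (0.66 ± 0.47, edgeR adjusted p = 0.308), and neither did Smco4 (-0.44 ± 0.31, edgeR adjusted p = 0.299).

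**Figure D5:**
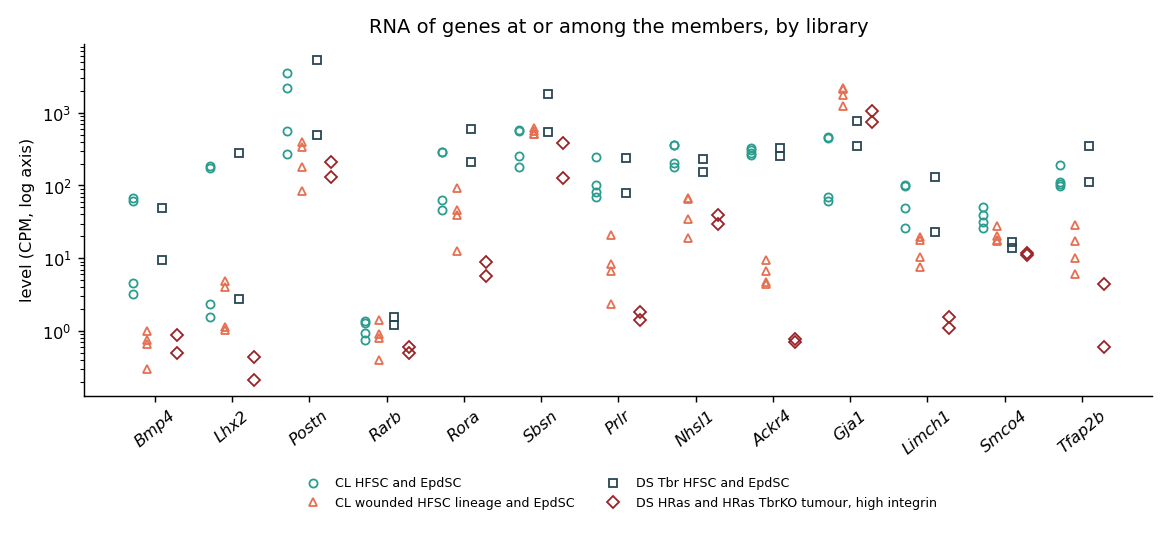
RNA level (CPM, log axis) of the 6 list genes with a member at the start and of 7 genes with 5 or more members within 50 kb, 1 symbol per library, for resting and wounded CL libraries, Tbr stem cells and HRas-bearing tumour cells of high integrin. Prlr, Ackr4 and Tfap2b are lower in every plotted tumour and wounded CL library than in any plotted resting one, and Gja1 is higher in every wounded than in any resting CL library.

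Among all genes with a member at the start, those that fell most in tumour cells included Egfl6, an extracellular matrix protein of follicle stem cells, at 94.1 and 19.5 CPM in the Tbr libraries and 0.27 and 0.11 in the tumour libraries (-8.23 ± 1.13, edgeR adjusted p = 0.0119). Dab1 went from 20.2 and 44.8 CPM to 0.20 and 0.18 (-7.42 ± 0.62, edgeR adjusted p = 0.00687). Slc2a12, a sugar transporter gene, went from 68.8 and 297 CPM to 2.07 and 0.86 (-6.98 ± 1.00, edgeR adjusted p = 0.0128). Cbs, an enzyme of cysteine synthesis, went from 37.8 and 95.8 CPM to 0.60 and 0.50 (-6.94 ± 0.63, edgeR adjusted p = 0.00783). All 4 were also lower after wounding, with overlap between the groups for Slc2a12. The same rule named 2310050C09Rik, Mir99ahg, Lrrc7, Gm6938 and Gm5860, which were at or under 1 CPM in both tumour libraries. Gm5860, with 0 counts in both, had the largest fitted fall.

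Fewer member genes rose in tumour cells. Adamts2 was at 1.68 and 0.48 CPM in the Tbr libraries and 26.8 and 10.9 in the tumour libraries (4.11 ± 0.86, edgeR adjusted p = 0.0243). The collagen gene Col18a1 rose from 196 and 94.2 CPM to 1497 and 911 (3.02 ± 0.52, edgeR adjusted p = 0.0168). Coro2a, a coronin, rose by 3.04 ± 0.45 and Adm, the hormone adrenomedullin, by 2.56 ± 0.57 (edgeR adjusted p = 0.0134 and 0.0284). Cxcr4, a chemokine receptor, rose from 4.98 and 1.65 CPM to 18.003 and 22.2 (2.57 ± 0.63, edgeR adjusted p = 0.0341). Rcan2, Tal1, Lingo1, Slc25a21 and Spef1l, the others named, were each at 2.41 CPM or less in both tumour libraries. Of these, Col18a1, Coro2a, Adm and Slc25a21 also had a region with a Tumor peak within 1 kb of a start. The fibroblast, leukocyte and endothelial marker sums given above were also higher in these tumour libraries.

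After wounding the largest falls in CL were in Ntrk2, a neurotrophin receptor, from 113 to 211 CPM in resting to 0.04 to 0.62 CPM in wounded libraries (-9.13 ± 0.45, edgeR adjusted p = 4.77e-06). Prrg3 fell from 13.0 to 27.9 CPM to 0 to 0.94 CPM (-8.25 ± 0.38, edgeR adjusted p = 8.65e-06), and Oxtr from 3.69 to 30.8 CPM to 0 to 0.15 CPM (-7.33 ± 0.56, edgeR adjusted p = 2.85e-05). Rasgrf1, a Ras exchange factor, fell by 8.36 ± 0.46 and Egfl6 by 7.32 ± 0.56 (edgeR adjusted p = 7.12e-06 and 2.74e-05). The groups did not overlap for any of these 5, which were picked as the largest falls in these same libraries. The share of all genes without overlap is not given here. Oxtr also had a region open in all 4 populations at a start. Ntrk2, Prrg3, Oxtr and Egfl6 were lower in tumour cells too, and Rasgrf1 was not tested there. The remaining names, Ccdc60, Ccna1, Gm5860, Lrrc7 and Slc35f1, had no more than 2 counts over the 4 wounded libraries.

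Of the genes that rose after wounding, Car9 went from 0.27 to 1.22 CPM to 12.8 to 25.04 CPM (5.03 ± 0.34, edgeR adjusted p = 1.73e-05) and Calm4, a skin calmodulin-like protein, from 130 to 260 CPM to 1625 to 3106 CPM (3.52 ± 0.23, edgeR adjusted p = 1.44e-05). The suprabasal proteases Asprv1 and Casp14 rose by 2.69 ± 0.30 and 2.62 ± 0.15 (edgeR adjusted p = 0.000163 and 8.17e-06). Casp14 was lower in tumour cells (-3.16 ± 0.42, edgeR adjusted p = 0.0114), and Asprv1 and Calm4 did not pass there. Lrrc4, an adhesion protein of neurons, rose by 4.32 ± 0.26 (edgeR adjusted p = 9.68e-06), and Slc25a21, Fez1, Calhm6, Kcns3 and Rassf4 were the others named. Each of these 10 genes had a member with a Wound peak at its start, and Casp14 and Slc25a21 a region with a Tumor peak there as well.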

How the data were processed

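ATAC-seq peaks of 4 populations and RNA-seq counts of 21 libraries were used. Peaks were called by the authors with MACS2 2.1.1.20160309 on paired-end alignments to mm10 without a control sample, at q 0.05, per the file headers; STAR, Bowtie and Picard are also named, per the submitters' processing notes, with no role given. The deposited peak lists give, per peak, the pileup signal, the fold enrichment (a ratio of pileup to local background) and -log10 p and q, all as the authors' caller wrote them. The gene counts are raw counts per gene as deposited by the authors, and how reads were assigned to genes is not given in the sources used here.

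Peaks overlapping by 1 bp or more were merged (Python 3.11.15, pandas 2.3.3). Shares carry 95% Wilson intervals, which cover counting error only. Gene starts and 300-base promoter windows came from RefSeq on GRCm38.p6, the assembly that mm10 names, with chromosome 18 not analysed here. A gene was linked to a member within 1 kb of its start. No genome sequence was used, so motifs were searched in promoter windows and not around peak summits, and the sequences shown are promoters in place of the summit windows first planned.

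RNA was tested with edgeR 4.0.16 (R 4.3.3; TMM scaling, filterByExpr, quasi-likelihood test, Benjamini-Hochberg adjustment over all genes tested, threshold 0.05). CPM are per effective library size. The alternatives were DESeq2 1.42.0, another scaling, no filter, each library left out, other tumour and stem cell libraries, Ensembl-based counts and a replicate block. The wounded library of BK was added as another alternative after the data were seen.

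Named were the list genes with a member at the start, the genes with most members within 50 kb (9, since ties stood at the next number), the 10 members with the highest lower fold with and without a Wound peak, and the 10 linked genes that changed most in each direction of each comparison. List genes with a member within 50 kb were added after their values were seen. The members, lists and markers were chosen with earlier results of these data known. Nothing in the labels ties each library to its own animal, and p-values measure the spread between libraries, which may be technical. In the tumour comparison each population had 1 library. The spread there therefore also holds the differences between HFSC and EpdSC and between the HRas and HRas TbrKO tumours. No 2 libraries of a group looked like 1 library deposited again, since their counts differed beyond counting error in every group.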

Additional observations from a re-analysis of the deposited data

Results flagged for a closer look

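The response to wounding differed between the lineages for 18 of the 46 named genes tested, by an interaction term in edgeR with adjustment over all genes. Over all genes 2338 of 14819 (15.8%) passed the same test. Some of the named genes were chosen for the size of their wound response in these same libraries, so the 2 shares cannot be compared. Values are the log2 fold change on wounding in the HFSC lineage minus that in EpdSC, with 2 libraries in each of the 4 groups, treated as independent.

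For 6 genes the fold changes had opposite signs: the difference was -6.40 for Adamts2 (-3.98 in the HFSC lineage and 2.42 in EpdSC), -8.77 for Cxcr4 (-3.61 in the HFSC lineage and 5.15 in EpdSC), -8.19 for Calhm6 (-0.62 in the HFSC lineage and 7.57 in EpdSC), 3.81 for Rora (0.34 in the HFSC lineage and -3.47 in EpdSC), 3.604 for Slc2a12 (0.30 in the HFSC lineage and -3.30 in EpdSC) and -1.50 for Sbsn (-0.12 in the HFSC lineage and 1.38 in EpdSC). The edgeR adjusted p of the interaction ran from 0.00056 (Cxcr4) to 0.0319 (Calhm6).

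EpdSC showed the larger fall in 5 genes, with a difference of 4.14 for Bmp4 (-2.46 in the HFSC lineage and -6.60 in EpdSC), 6.35 for Prrg3 (-5.08 in the HFSC lineage and -11.43 in EpdSC), 2.49 for Limch1 (-1.01 in the HFSC lineage and -3.50 in EpdSC), 2.20 for Nhsl1 (-1.55 in the HFSC lineage and -3.75 in EpdSC) and 1.07 for Ackr4 (-5.07 in the HFSC lineage and -6.14 in EpdSC). The HFSC lineage showed the larger fall in Lhx2, with a difference of -4.52, from -5.36 and -0.84. Prrg3 had 0 counts in both wounded and Calhm6 in both unwounded EpdSC libraries, so their fitted values are no bounds.

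Among genes with fold changes above 0 in both lineages, the value was larger in the HFSC lineage by 3.33 for Gja1 (5.04 in the HFSC lineage and 1.71 in EpdSC), 2.69 for Adm (2.80 in the HFSC lineage and 0.11 in EpdSC) and 2.05 for Casp14 (3.65 in the HFSC lineage and 1.59 in EpdSC). It was larger in EpdSC for 3, with a difference of -3.98 for Rassf4 (0.65 in the HFSC lineage and 4.63 in EpdSC), -2.62 for Lrrc4 (3.01 in the HFSC lineage and 5.63 in EpdSC) and -1.05 for Col18a1 (1.00 in the HFSC lineage and 2.05 in EpdSC). Leukocyte and fibroblast marker RNA was also higher in wounded libraries, and its part in these differences was not tested.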

How the results depend on the processing

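The number of members without a Wound peak was 1394, and became 794 with HFSC and Epd peaks kept only at -log10 q of 5 or more and 2544 with each list cut to the length of the shortest. In the tumour comparison, leaving out each library in turn gave 0 to 43 member genes higher and 11 to 167 lower, and over all genes 192 to 4195 higher and 66 to 3788 lower. With all 3 tumours of high integrin, 4 member genes were higher and 41 lower, beside 636 and 556 over all genes. Nearest genes within 50 kb of a member were higher in 11.014% of cases, against 6.57% at starts. Rarb turned to 2.43 with those 3 tumours and to 2.59 with all 6 tumour libraries, and in the HFSC lineage alone Calhm6 turned to -0.62, Rora to 0.34 and Sbsn to -0.12. The cause was not tested. With the wounded EpdSC library of BK against EpdSC of BK, chosen after seeing the data and with the lone library assumed to vary like the others, 5 member genes were higher and 20 lower, beside 259 and 910 over all genes. There Ackr4 turned to 0.73, Gm5860 to 0.68, Limch1 to 0.18, Postn to 4.64, Prlr to 0.89, Rarb to 0.15, Rassf4 to -2.04, Rora to 0.95, Slc35f1 to 0.21 and Smco4 to 0.70. Of 27 named genes called in the tumour comparison, Ackr4 and Dab1 were called under every alternative, and of 32 in the wound comparison 25 were under every alternative within CL and 2 with BK included.

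With the replicate letter as a replicate block, 56 member genes were higher and 156 lower after wounding, beside 4455 and 4769 over all genes. The difference between letters A and B in log CPM was correlated between groups. These correlations ran from -0.18 to 0.45, the highest being the wounded HFSC lineage with wounded EpdSC. The letters were not used as pairs in the main fit. Whether the wounded libraries of 1 letter share animals was not tested. Windows around peak summits and motifs away from gene starts were not run, since no genome sequence was used, and CTCF and p53 motifs were not searched. With 1 pooled peak list per population, no spread between animals stands behind the presence of a peak.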
